A study of Mus musculus with 2 samples.

Results

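The genes described here encode 10 matricellular proteins, which are secreted into the extracellular matrix and act on cells from there: periostin (Postn), osteonectin (Sparc), hevin (Sparcl1), thrombospondin 1 (Thbs1), thrombospondin 2 (Thbs2), tenascin C (Tnc), osteopontin (Spp1), Smoc2, Tgfbi and fibronectin (Fn1). They were chosen by name as a family of known function. All 10 were found among the 31054 features of the single-cell count tables. They were compared between 2 single-cell RNA libraries of hepatic stellate cells (HSCs), within stellate, endothelial and Kupffer cells set apart by marker genes.

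Matricellular proteins bind collagen, growth factors and integrins, and most of them are low in resting tissue and high where tissue is being repaired. In the liver, HSCs store vitamin A while quiescent and lay down collagen once activated, and several of these proteins are made by them during that change. Sparc binds fibrillar collagen, Postn and Fn1 take part in the assembly of matrix around cells, and thrombospondin 1 can release active TGF-beta from its latent complex.

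Both libraries came from male mice on a C57BL/6 background that carried heterozygous alleles and received CCl4 for 4 weeks together with tamoxifen and diphtheria toxin. The p16-Alb-LRTD mice carried p16-CreERT2, Alb-DreERT2 and a reporter allele, R26-CAG-LSL-RSR-tdTomato-2A-DTR. By design the reporter and the toxin receptor are switched on only where the p16 promoter has driven Cre and the albumin promoter has driven Dre. Such cells are hepatocytes with high p16 expression. The paper reports very mild fibrosis away from the central veins only in mice with Alb-DreERT2 and the reporter allele. It speculates that the toxin receptor leaked past its loxP stop. The part of such leakage in the values below was not tested. The p16-LRTD control mice carried p16-CreERT2 and the reporter allele without Alb-DreERT2, and received the same agents. The cells were isolated by perfusion digestion and a Nycodenz density gradient, and the age of the mice and the number of mice behind each library are not given in the sources used here. The comparison addresses how the stellate cells of a fibrotic liver differ once p16-high hepatocytes are eliminated.

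With 1 library per genotype there was no replicate, so no difference below has a test, and genotype cannot be told apart from mouse, isolation or library. All intervals are 95% intervals from exact counting statistics and cover counting error only. The p16-LRTD library held 193746596 UMIs (unique molecular identifiers, counted molecules) over 11149 barcodes, of which 9004 were kept, and the p16-Alb-LRTD library held 162219167 UMIs over 8806 barcodes, of which 7416 were kept. The libraries shared 95 barcodes, 18 of them kept in both, and leaving these out changed the direction of no stellate value. Levels are given as CPM, the UMIs of a gene over all UMIs of the summed cells of a class, per 1000000 UMIs, and ratios are p16-Alb-LRTD over p16-LRTD on the log2 scale.

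A barcode was called stellate when Lrat, Ecm1, Hgf and Reln together reached 15 of 10000 UMIs, endothelial when Kdr, Stab2 and Ptprb reached 8, and Kupffer when Clec4f, Cd5l, Vsig4 and Csf1r reached 8, provided that it met 1 of these rules only. Stellate cells made up 7852 of the kept barcodes of p16-LRTD against 6621 of p16-Alb-LRTD, endothelial cells 430 and 283, and Kupffer cells 283 and 178. Few barcodes lay near the stellate threshold: 81 and 53 were within 1.5 times above it. The stellate class also expressed the stellate markers Dcn, at 18430 and 22186 CPM, Colec11, at 3222 and 2725 CPM, Rgs5, at 2312 and 1925 CPM, Pdgfrb, at 376 and 231 CPM, and Des, at 213 and 219 CPM in p16-LRTD and p16-Alb-LRTD. Csf1r in the Kupffer rule is a gene of macrophages in general. Of 6 further macrophage markers, Lyz2, Gpnmb, Trem2, Itgam, Ccr2 and Ly6c2, which summed to 5112 and 3260 CPM in the Kupffer class, Lyz2, which Kupffer cells also express, made up 3903 and 2917 CPM. Gpnmb stood at 717 and 109 CPM, Trem2 at 412 and 165 CPM, Itgam at 71.8 and 61.9 CPM and the monocyte genes Ccr2 at 8.58 and 6.48 CPM and Ly6c2 at 0.34 and 0 CPM.

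The promoters of 3 of these genes are shown, all with stretches outside annotated exons. Of these genes, Postn and Spp1 were lower in stellate cells of p16-Alb-LRTD and Thbs2 was nearly level. Promoter entries in RefSeq (GRCm38.p6) matched 6 of the 10 genes by symbol, Postn, Sparc, Thbs2, Tnc, Spp1 and Tgfbi. The sequences are the 120 bases before the RefSeq start site, 5′ to 3′ on the strand of the gene, at chr3:54360987-54361106 on the plus strand for Postn, chr5:104434991-104435110 on the plus strand for Spp1 and chr17:14694263-14694382 on the minus strand for Thbs2. Capitals mark matches to any of 4 motifs read on both strands, the TATA box TATAAA, the AP-1 site TGANTCA, the SMAD box CAGAC, which reads as GTCTG on the opposite strand, and the TEAD site GGAATG.
Postn: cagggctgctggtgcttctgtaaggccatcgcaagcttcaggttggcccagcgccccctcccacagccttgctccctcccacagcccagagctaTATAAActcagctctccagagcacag
Spp1: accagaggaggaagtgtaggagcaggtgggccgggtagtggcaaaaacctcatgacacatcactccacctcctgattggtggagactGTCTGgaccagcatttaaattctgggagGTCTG
Thbs2: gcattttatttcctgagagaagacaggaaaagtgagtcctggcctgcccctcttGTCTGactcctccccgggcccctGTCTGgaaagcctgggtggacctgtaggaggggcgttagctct
The Postn stretch held a TATA box whose outermost base lies 26 bases before the start. Those of Spp1 and Thbs2 held SMAD boxes, at 33 and 5 bases for Spp1 and at 66 and 43 bases for Thbs2. Further from the start, a TATA box lay at 211 bases in Spp1 and at 126 bases in Thbs2 and in Tnc. The matching stretches of Sparc and Tgfbi lie in annotated exons over 120 and 63 bases and are not shown. That of Tnc lies outside annotated exons, held no match within its 120 bases and is not shown. No AP-1 or TEAD match lay within 250 bases of the start in any of the 6 genes. Over the 250 bases before the start of 32851 promoters, the TATA box was found in 12.4%, the AP-1 site in 6.75%, the SMAD box in 42.2% and the TEAD site in 12.6%. These matches are descriptions of letters and not binding sites.

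In stellate cells the 10 genes divided. Postn, Sparc, Spp1 and Fn1 were lower in p16-Alb-LRTD by 1.51-fold to 1.88-fold, Sparcl1, Thbs1 and Tgfbi were higher by 1.31-fold to 1.39-fold, and Tnc, Smoc2 and Thbs2 differed by at most 1.20-fold. None of the 10 was past 2-fold in either direction, beside 0.943% of the 10179 genes with a mean of at least 5 CPM that were at least 2-fold lower and 0.923% that were at least 2-fold higher. The count of lower genes was 3 without stellate cluster 0 (Postn -1.04, Sparc -1.02 and Spp1 -1.17), 2 without cluster 2 (Postn -1.06 and Sparc -1.004) and 1 with marker thresholds 50% as high (Spp1 -1.13). At 1.5-fold, 4 of the 10 were lower (Spp1 among them, at a share of cells read below as background), beside 3.05% of all genes tested, and 0 of the 10 were higher, beside 3.03%. Fn1 was close to this limit and fell short of it with TMM or median-of-ratios scaling (both -0.55), with cluster shares pooled over the libraries (-0.56), with no upper limits on genes and UMIs (-0.57) and without stellate cluster 1 (-0.52) or 3 (-0.58), and Spp1 fell short in cells of 10000 to 30000 UMIs (-0.55) and as a mean of single-cell CPM (-0.57). The median log2 ratio of the 10 was -0.23, with 6 lower and 4 higher, and that of all genes tested was -0.05, with 60.7% of them lower. In a bulk sum of this kind, fewer expressing cells and less RNA per cell cannot be told apart, so the shares of cells are given further on.

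**Figure D1:**
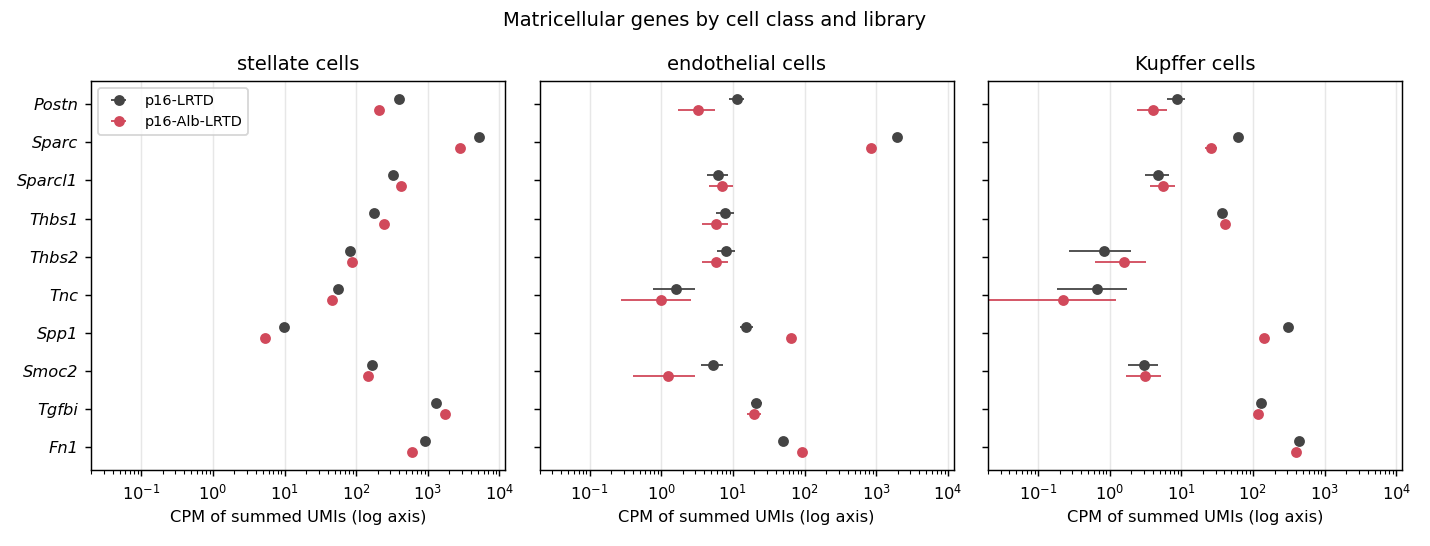
Level of each matricellular gene (CPM of summed UMIs, log axis) in stellate, endothelial and Kupffer cells of the p16-LRTD library (grey) and the p16-Alb-LRTD library (red), with bars for the exact 95% Poisson interval of the count. In stellate cells Postn and Sparc sit further left in p16-Alb-LRTD (211 against 397 CPM and 2823 against 5216 CPM), and in the other classes most genes lie far below their stellate level.

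The first group by role are the collagen-binding and counter-adhesive proteins of the osteonectin family. Sparc stood at 5216 CPM in stellate cells of p16-LRTD and at 2823 CPM in those of p16-Alb-LRTD, with -0.89 as the log2 ratio (95% interval of counting error -0.89 to -0.88). Its close relative Sparcl1, known also from synapses of the brain, went the other way, with 325 and 427 CPM and a log2 ratio of 0.39 (0.38 to 0.41). Smoc2, a secreted calcium-binding protein of the same family, stood at 168 and 145 CPM, a ratio of -0.21 (-0.23 to -0.18). The family therefore held a gene lower by 1.85-fold and a gene higher by 1.31-fold in the same cells. Sparc (ENSMUSG00000018593) lies on chromosome 11 from 55394500 to 55423183, Sparcl1 (ENSMUSG00000029309) on chromosome 5 from 104079111 to 104113733 and Smoc2 (ENSMUSG00000023886) on chromosome 17 from 14279506 to 14404790 in GRCm38.

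Postn and Tgfbi both carry fasciclin domains and both bind collagen and integrins. Postn, which is induced in activated fibroblasts and promotes collagen cross-linking, stood at 397 CPM in p16-LRTD against 211 CPM in p16-Alb-LRTD, with a log2 ratio of -0.91 (-0.93 to -0.89). Tgfbi, named for its induction by TGF-beta, stood at 1312 and 1747 CPM, with a ratio of 0.41 (0.40 to 0.42). These genes of 1 domain family thus lay on opposite sides of the median of all genes. Postn (ENSMUSG00000027750) is on chromosome 3 from 54361109 to 54391037, and Tgfbi (ENSMUSG00000035493) on chromosome 13 from 56609523 to 56639562.

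Fn1, the fibronectin that cells assemble into fibrils through integrins, stood at 921 CPM in p16-LRTD against 609 CPM in p16-Alb-LRTD, with a log2 ratio of -0.60 (-0.61 to -0.58). Of the thrombospondins, Thbs1 stood at 177 and 246 CPM, with a ratio of 0.47 (0.45 to 0.50), the highest of the 10. Thbs2, an inhibitor of angiogenesis that does not release TGF-beta, stood at 81.2 and 88.6 CPM, with a ratio of 0.13 (0.09 to 0.16). Both thrombospondins were thus above their control level while Fn1 was below it. Fn1 (ENSMUSG00000026193) lies on chromosome 1 from 71585520 to 71653200, Thbs1 (ENSMUSG00000040152) on chromosome 2 from 118111876 to 118127133 and Thbs2 (ENSMUSG00000023885) on chromosome 17 from 14665500 to 14694235.

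Tnc, a tenascin that weakens adhesion to fibronectin, stood at 55.8 and 46.6 CPM, with a log2 ratio of -0.26 (-0.31 to -0.21). Spp1, the integrin ligand osteopontin, stood at 9.75 CPM in p16-LRTD against 5.34 CPM in p16-Alb-LRTD, with a ratio of -0.87 (-1.004 to -0.735). Only 1391 and 668 Spp1 UMIs lay in stellate cells, and 12 cells of p16-LRTD with at least 20 Spp1 UMIs each held 487 of the 1391. Those 12 cells also carried 2336 CPM of Lyz2, a macrophage gene, beside 29.1 CPM in the whole class, and the highest count in a stellate cell of p16-Alb-LRTD was 7 UMIs. Without a stellate cluster of 32 cells led by macrophage and lymphocyte genes, the Spp1 ratio was -0.62. Tnc (ENSMUSG00000028364) is on chromosome 4 from 63959785 to 64047015 and Spp1 (ENSMUSG00000029304) on chromosome 5 from 104435118 to 104441050.

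**Figure D2:**
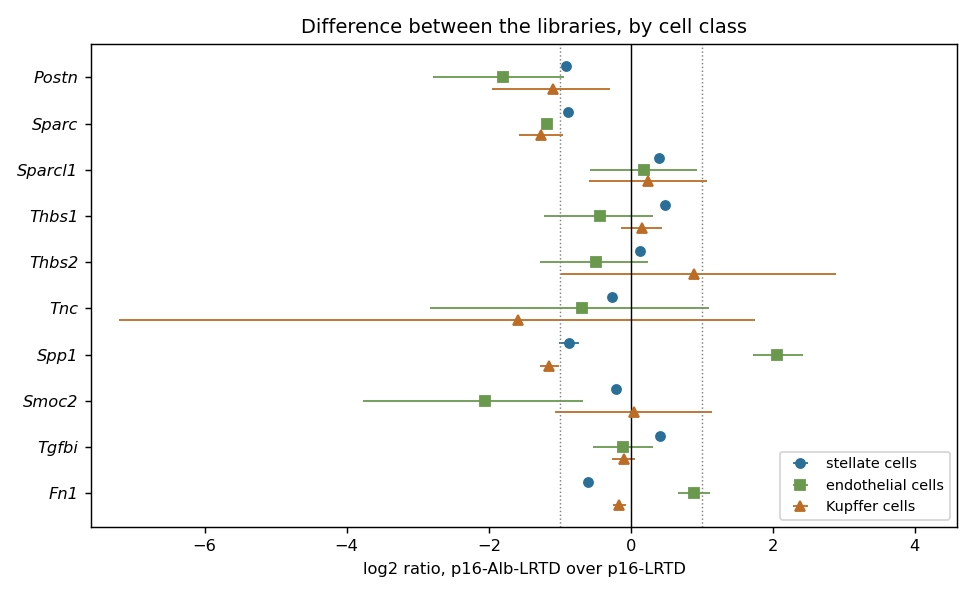
Log2 ratio of p16-Alb-LRTD over p16-LRTD for each matricellular gene in stellate (blue circles), endothelial (green squares) and Kupffer cells (brown triangles), with exact 95% intervals for counting error only and dotted lines at 2-fold. The stellate values run from -0.91 for Postn to 0.47 for Thbs1, and Sparc lies below 0 in all 3 classes.

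Several other gene groups also differed between the libraries in stellate cells. The 3 fibrillar collagen genes Col1a1, Col1a2 and Col3a1 summed to 8353 CPM in p16-LRTD against 2852 CPM in p16-Alb-LRTD, and the cycling genes Mki67 and Top2a to 39.1 and 5.62 CPM. All 12 genes of an immediate early and heat shock list, among them Fos, Jun, Egr1, Atf3 and Hspa1a, were higher in p16-Alb-LRTD, with a summed level of 6946 and 10516 CPM, and all 12 were also higher in endothelial and in Kupffer cells. Of the markers of other cells, the 6 portal fibroblast genes summed to 131 and 102 CPM. The 6 further macrophage genes summed to 38.7 and 21.1 CPM, with Ly6c2 at 0 in p16-LRTD. The 4 smooth muscle genes, Myh11, Cnn1, Acta2 and Tagln, summed to 817 and 522 CPM. The paper also reads Acta2 in HSCs, so this sum is not read as a mark of other cells. The part of these groups in the ratios of the matricellular genes was not tested, except that the ratios without cells holding an Mki67 or Top2a UMI kept the direction of all 10. Median depth was 17024.5 UMIs per stellate cell in p16-LRTD and 18136 in p16-Alb-LRTD.

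The share of stellate cells with a UMI was taken after each cell was thinned to 5000 UMIs, which left out 16 and 7 shallower cells. Postn was seen in 73.9% of cells of p16-LRTD (72.9 to 74.9%, exact Clopper-Pearson interval) against 54.6% of p16-Alb-LRTD (53.4 to 55.8%), and without thinning in 93.5% and 84.8%. Fn1 was seen in 95.3% and 86.7%, so that Postn and Fn1 were lower in share of cells as well as in level. Sparc, which nearly all stellate cells expressed, was seen in 99.99% and 99.89%, and its difference in level was thus a difference in UMIs per cell.

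Shares were higher in p16-Alb-LRTD for the genes with a higher level. Sparcl1 was seen in 61.0% of stellate cells of p16-LRTD against 74.0% of p16-Alb-LRTD, or in 83.5% and 92.8% without thinning. Thbs1 was seen in 39.7% and 48.3%, Thbs2 in 27.5% and 33.9%, and Tgfbi in 96.4% and 98.9%. For Tnc, with 16.2% and 16.8%, and for Smoc2, with 40.1% and 41.3%, the intervals of both libraries overlapped and the share went against the level, so no order is read. The Spp1 share, 2.95% and 2.46%, was no higher than in endothelial cells, where it was 3.11% and 5.30% at median depths of 11781 and 11992 UMIs before thinning, and is read as background. By comparison, the Postn share in endothelial cells was 3.83% and 1.77%, and that of Sparcl1 1.67% and 4.95%.

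**Figure D3:**
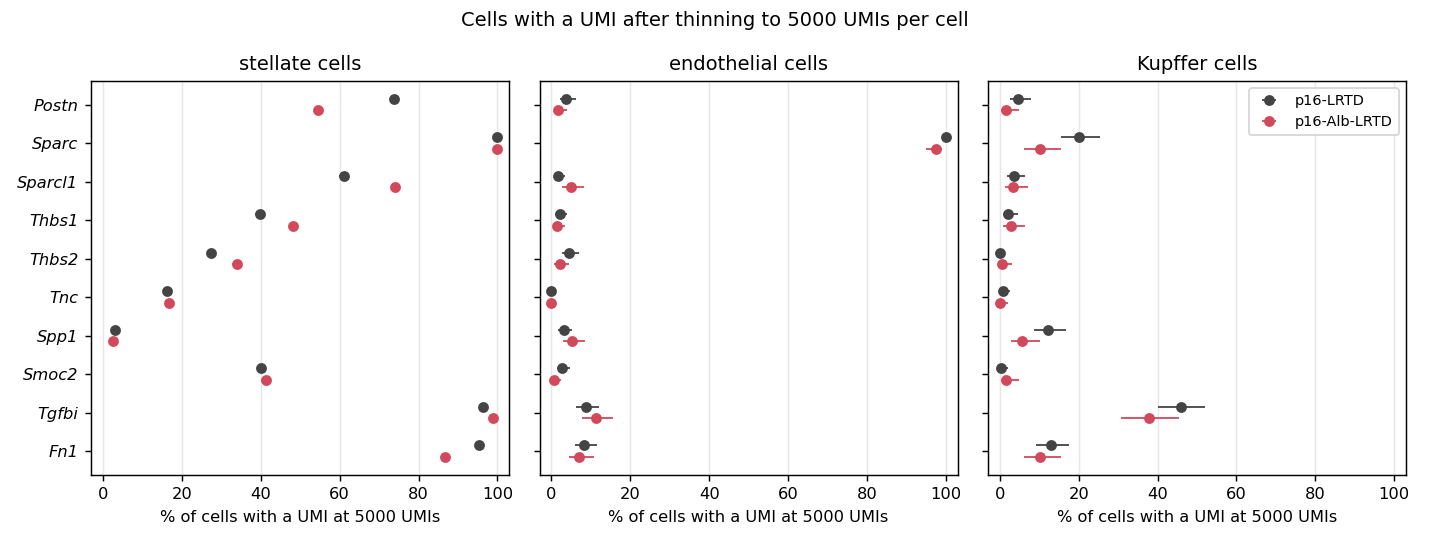
Percentage of cells with at least 1 UMI of each gene after thinning to 5000 UMIs per cell, by cell class, for p16-LRTD (grey) and p16-Alb-LRTD (red), with exact 95% binomial intervals. In stellate cells Postn moves from 73.9% to 54.6% and Sparcl1 from 61.0% to 74.0%, and in endothelial cells Sparc stands apart with nearly all cells.

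The stellate cells fell into 9 clusters when the 10 genes themselves were kept out of the clustering, and 5 of these, numbered 0 to 4, held at least 100 cells of each library. Cluster 0 was led by Galnt14, Grin2b and Hhip, cluster 1 by Grid1, Inmt and Sdk2, cluster 2 by Notch3 and Clstn2, cluster 3 by Fbn2, Wt1, Ltbp2 and Svep1, and cluster 4 by Nrtn, Tmem119 and Fcna. They held 30.4%, 18.1%, 24.4%, 12.5% and 10.7% of the stellate cells of p16-LRTD and 34.4%, 27.0%, 14.3%, 10.6% and 10.5% of those of p16-Alb-LRTD. Sparc and Fn1 were lower in p16-Alb-LRTD in all 5 clusters, and Sparcl1 and Tgfbi were higher in all 5. Postn was lower in 4 clusters, and in cluster 2 its interval, -0.09 to 0.02, included 0. Of the other 5 genes, Thbs1, Thbs2, Tnc and Smoc2 each had clusters with intervals above 0 and clusters with intervals below it. Spp1 was lower in 4 clusters, with an interval from -0.09 to 0.46 in cluster 0. At a clustering resolution of 0.2 in place of 0.5, which gave 4 clusters of this size, 7 genes had ratios on the same side of 0 in every cluster, Postn, Sparc, Spp1 and Fn1 below it and Sparcl1, Thbs1 and Tgfbi above it, though the interval of Spp1 in 1 cluster (-0.31 to 0.12) and that of Thbs1 in another (-0.03 to 0.16) included 0.

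Among clusters 0 to 4 of p16-LRTD, cluster 3 had the highest level of the 10 genes except Postn, Fn1 and Tgfbi. It carried 8526 CPM of Sparc, 675 of Sparcl1, 376 of Smoc2, 309 of Thbs1, 166 of Thbs2 and 149 of Tnc, beside 16.3 of Spp1. Its cells also carried 482 CPM of the 6 portal fibroblast markers over both libraries, beside 17.4 to 116 CPM in the other 4 clusters. The 3 collagen genes summed to 18110 CPM, beside 1652 to 6867 CPM, and the 4 mesothelial markers to 281 CPM, beside 0.663 to 19.7 CPM. The 3 mesothelial markers other than Wt1 were each under 1 CPM in the whole stellate class of both libraries, and Wt1 is a leading gene of this cluster. The part of other cell types in its values was not tested. The ratios of Sparc, Fn1 and Tnc were furthest below 0 there, also at the other resolution in the 1 of the 4 clusters highest in these markers. Those of Postn and Spp1 were furthest below 0 there at resolution 0.5 but in another cluster, at -1.42 and -1.24, at 0.2. Postn stood at 375 CPM in cluster 3 of p16-LRTD and 132 in p16-Alb-LRTD, which is a log2 ratio of -1.51, Sparc at 8526 and 3462 CPM (-1.30), Fn1 at 683 and 325 CPM (-1.07) and Tnc at 149 and 83.7 CPM (-0.83). In cluster 2, by contrast, Postn stood at 253 and 247 CPM (-0.03), Sparc at 4245 and 3592 CPM (-0.24) and Fn1 at 1275 and 1002 CPM (-0.35). Between these the Postn ratio was -0.75 in cluster 0, -1.37 in cluster 1 and -1.18 in cluster 4.

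The genes that were higher had a different spread over clusters. Tgfbi went from 673 to 1172 CPM in cluster 2, a ratio of 0.80, and its ratios in the other 4 clusters lay between 0.24 and 0.33. Sparcl1 had ratios between 0.17 in cluster 4 and 0.51 in cluster 0. Thbs1 was higher in clusters 0, 1, 3 and 4, with 0.60 in cluster 0, and lower in cluster 2 with -0.13. Thbs2 had 0.78 in cluster 2 and -0.27 in cluster 3. The small ratios of Thbs2, Tnc and Smoc2 over all stellate cells were thus sums of clusters that went in opposite directions.

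Cluster 5, led by the chemokine genes Cxcl9, Cxcl2 and Ccl7, held 76 and 170 cells and stood apart for Thbs1 and Tnc. Its cells also carried 2706 CPM of the 4 smooth muscle markers over both libraries, beside 417 to 1093 CPM in clusters 0 to 4. These markers include Acta2, which the paper also reads in HSCs, and their part in the values of this cluster was not tested. Thbs1 was at 889 CPM there in p16-LRTD against 1147 CPM in p16-Alb-LRTD, above all 5 large clusters. Tnc was at 242 and 126 CPM in cluster 5, likewise above each of the large clusters in the same library.

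**Figure D4:**
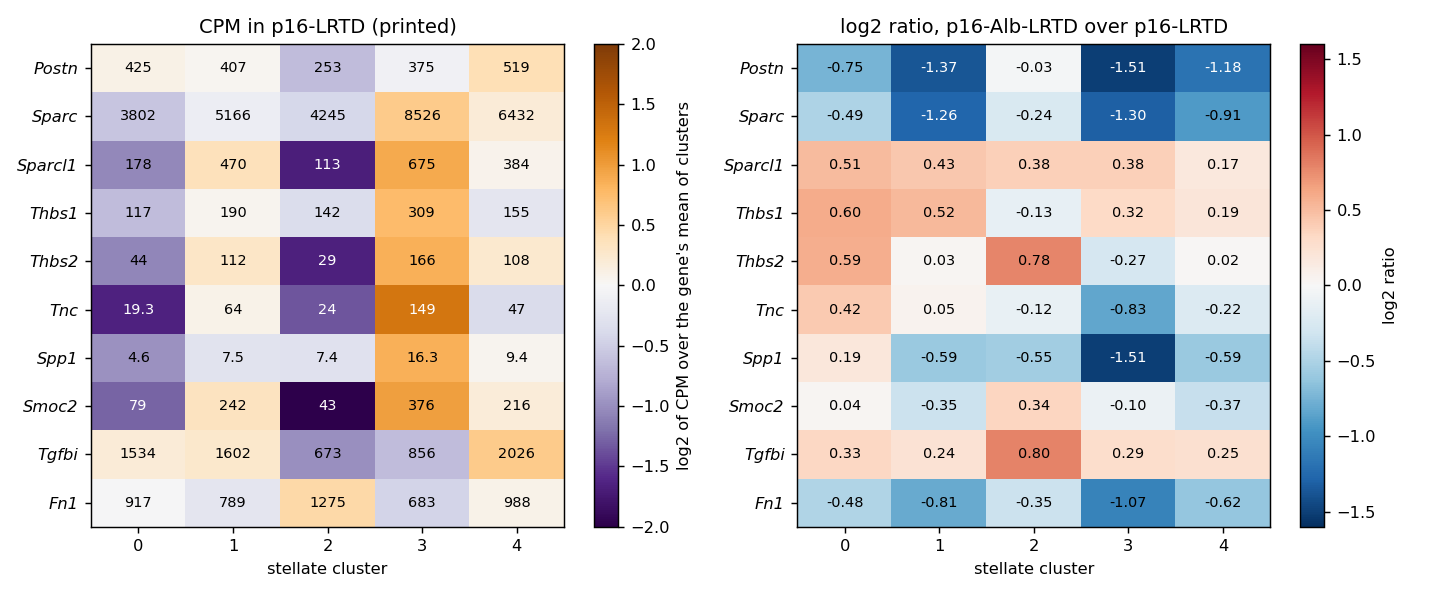
Matricellular genes in the 5 stellate clusters with at least 100 cells of each library. Left, printed CPM in p16-LRTD, coloured by the log2 of CPM over the mean of the gene across clusters, and right, log2 ratio of p16-Alb-LRTD over p16-LRTD. Sparc and Fn1 are below 0 in all 5 columns, and Postn is below 0 in 4 of them and at -0.03 in cluster 2, with an interval that includes 0.

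For correlation within stellate cells over the thinned cells, partners were ranked by the lower of the Pearson r of both libraries. By that measure Tgfbi went most with Dcn, with an r of 0.46 in p16-LRTD and 0.46 in p16-Alb-LRTD over 7836 and 6614 cells. Sparcl1 ranked Alcam first (0.40 and 0.39), Smoc2 also with Alcam (0.37 and 0.33), Fn1 with Col14a1 (0.34 and 0.34) and Sparc with Tmsb10 (0.33 and 0.32). Sparc and Col3a1 had 0.60 in p16-LRTD and 0.27 in p16-Alb-LRTD. Among the 10 genes themselves the highest value was that of Sparcl1 with Smoc2, at 0.37 and 0.29. The cells share a library and depth.

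A further 37 genes for related matricellular and matrix proteins were listed, of which 21 had a mean of at least 5 CPM in stellate cells. Of these 18 were lower in p16-Alb-LRTD and 3 higher, beside 60.7% lower among all genes tested, with 4 at least 2-fold lower, beside 0.943%, and 2 at least 2-fold higher, beside 0.923%, and the median log2 ratio was -0.31, beside -0.05. Past 2-fold with at least 20 CPM were Lgals1, the glycan-binding galectin 1, with 605 and 286 CPM (-1.08), and Dpt, the collagen-binding dermatopontin, with 60.4 and 29.7 CPM (-1.02). In the other direction were Spon1, the secreted F-spondin, with 107 and 245 CPM (1.19), and Ctgf, the connective tissue growth factor of the CCN family, with 335 and 734 CPM (1.13). Of 24 receptors and binding partners, integrin chains among them, 19 reached 5 CPM, 12 were lower and 7 higher, the median was -0.08, and 1 was at least 2-fold lower and 0 higher, beside the same 0.943% and 0.923%. This was Sdc1, which stood at 13.0 and 4.09 CPM (-1.67). The other 18 had log2 ratios between -0.41 for Itga9, an integrin chain at 778 and 586 CPM, and 0.51 for Egfr, at 145 and 206 CPM. Itgav was at 140 and 129 CPM, Itgb1 at 881 and 781 CPM and Cd47, a receptor of Thbs1, at 396 and 467 CPM.

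**Figure D5:**
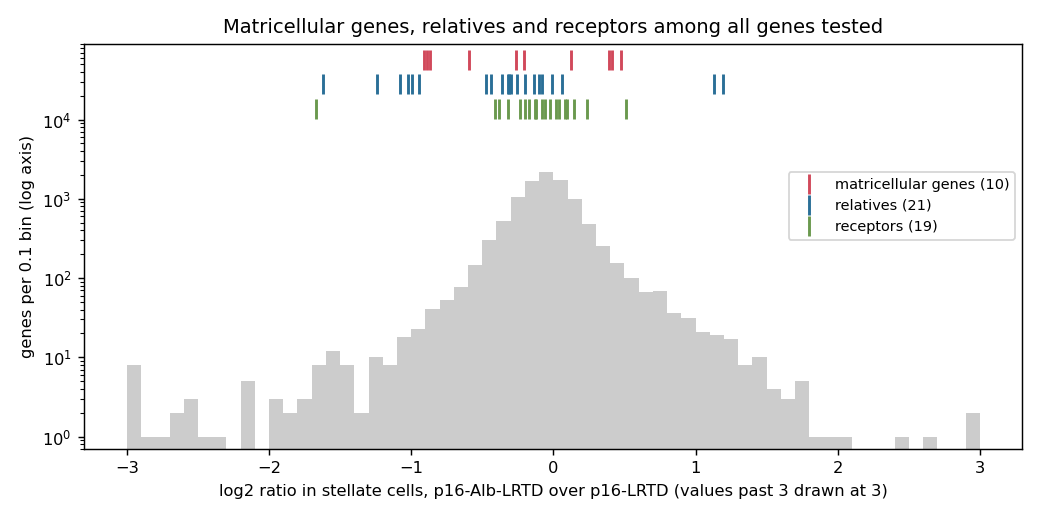
Histogram of the log2 ratio of all 10179 genes tested in stellate cells (grey, log axis, bins of 0.1), with ticks for the 10 matricellular genes (red), 21 related genes (blue) and 19 receptors (green) with a mean of at least 5 CPM. The 10 genes lie between -0.91 and 0.47, inside 2-fold, while the related genes run from -1.62 to 1.19. The receptors run from -1.67 to 0.51, with a median of -0.08.

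In endothelial cells Sparc was the 1 gene of the 10 that most cells carried, seen in 100% and 97.5% of thinned cells. Sparc stood at 1921 CPM in p16-LRTD against 846 CPM in p16-Alb-LRTD, which is 36.8% and 29.95% of the stellate level, and its log2 ratio was -1.18 (-1.24 to -1.13). The endothelial cell with the most Sparc held 655 UMIs, and the ratio without that cell of each library was -1.12. In the endothelial class the stellate marker Dcn stood at 319 and 258 CPM and Colec11 at 52.8 and 38.2 CPM. The 3 collagen genes summed to 634 and 41.7 CPM there, with 986 of 1323 Col1a1 UMIs, 832 of 1216 Col1a2 UMIs and 670 of 1363 Col3a1 UMIs of p16-LRTD each in 1 cell. The part of these genes in the Sparc ratio was not tested.

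The other genes were sparse in endothelial cells. Postn stood at 11.4 and 3.26 CPM from 70 and 13 UMIs, and Smoc2 at 5.20 and 1.26 CPM from 32 and 5 UMIs, and with cells meeting other marker rules kept both turned, to log2 ratios of 0.055 and 0.41. Of the 8 genes with a mean of at least 5 CPM here, which leaves out Smoc2, Sparc and Postn were at least 2-fold lower, beside 3.65% of the 9858 genes tested. Neither was past 2-fold under every alternative, since Sparc was at -0.83 with cells meeting other marker rules kept and Postn at -0.90 with marker thresholds 50% as high. Spp1 was the 1 gene of the 8 at least 2-fold higher, beside 2.0% of genes tested, with 15.4 and 64.5 CPM. In p16-Alb-LRTD 1 cell held 230 of its 257 UMIs, and another held 63 of 95 in p16-LRTD. Without those cells Spp1 stood at 5.22 and 6.83 CPM, and with a mitochondrial limit of 10% its log2 ratio was -0.48. The p16-Alb-LRTD cell with 230 Spp1 UMIs also held 316 of the 370 Fn1 UMIs of that class. The Fn1 log2 ratio went from 0.89 with it to -1.26 without the top cell of each library. This cell carried 3293 CPM of Lyz2, and the p16-LRTD cell with 63 Spp1 UMIs carried 8471 CPM. The part of macrophage RNA in these values was not tested. Thbs1, Thbs2, Tnc, Sparcl1 and Tgfbi had intervals that included 0.

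In Kupffer cells Spp1 and Fn1 had their counts in few cells. Spp1 stood at 313 CPM in p16-LRTD against 141 CPM in p16-Alb-LRTD, which is a log2 ratio of -1.15 (-1.28 to -1.02), and 4 cells and 1 cell held 50% of its UMIs. Fn1 stood at 441 and 394 CPM, a ratio of -0.16 (-0.25 to -0.07), with 50% of its UMIs in 4 and 2 cells. Neither direction held under other cell limits, since with no upper limits on genes and UMIs the ratios were 0.088 for Spp1 and 0.17 for Fn1. In cells of 10000 to 30000 UMIs they were -5.54 and -4.32. Spp1 was seen in 12.2% of thinned Kupffer cells of p16-LRTD against 5.65% of p16-Alb-LRTD. The cells with at least 20 Spp1 UMIs, 16 and 3 in number, held 91.5% and 94.3% of the Spp1 in this class and carried 12029 and 3634 CPM of Lyz2, 2724 and 93.2 CPM of Gpnmb and 1092 and 364 CPM of Trem2. Gpnmb and Trem2, genes of lipid-laden and scar-associated macrophages, were thus lower in these cells, and in the whole class they were lower together with Spp1. The 16 and 3 cells held 1701 and 596 Spp1 UMIs, so Spp1 was not lower per cell among them. The part of Gpnmb and Trem2 in the Spp1 ratio was not tested.

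Tgfbi was the matricellular gene with the highest share of Kupffer cells in both libraries, seen in 46.0% and 37.9% of thinned cells, and it stood at 128 and 119 CPM with an interval of the ratio from -0.26 to 0.06. Sparc stood at 62.1 and 25.9 CPM, which is 1.19% and 0.92% of the stellate level, with a ratio of -1.26, and Postn at 8.58 and 4.02 CPM from 51 and 18 UMIs, with a ratio of -1.09 (-1.96 to -0.29) that was -0.98 with a mitochondrial limit of 10%. In p16-LRTD 1 cell held 92 of the 369 Sparc UMIs, and without the top cell of each library the Sparc ratio was -0.91, which is short of 2-fold. Of the 7 genes with a mean of at least 5 CPM here, Sparc, Postn and Spp1 were at least 2-fold lower, beside 1.87% of the 9514 genes tested, and 0 were at least 2-fold higher, beside 1.70%. The stellate marker Dcn stood at 241 and 222 CPM in this class and Colec11 at 38.2 and 29.1 CPM, and the part of stellate RNA in the Sparc and Postn values was not tested. Thbs1 stood at 37.0 and 41.1 CPM, with 138 of 184 UMIs in 1 cell of p16-Alb-LRTD, and its log2 ratio was -2.89 in cells of 10000 to 30000 UMIs.

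Most of the Spp1 in both libraries lay outside the 3 classes. Barcodes that met none of the marker rules, 194 and 113 in number, held 67.3% of the Spp1 UMIs of p16-LRTD and 74.7% of those of p16-Alb-LRTD, and 9.09% and 13.5% of the Fn1 UMIs. For each of the other 8 genes stellate cells held over 92% of the UMIs. Among the unclassified barcodes, 33 and 21 cells with at least 20 Spp1 UMIs held 97.5% and 98.6% of the Spp1 there. These cells carried 11535 and 10659 CPM of Lyz2, 4337 and 10419 CPM of Fn1, and 2769 and 271 CPM of Gpnmb. Of the cholangiocyte, the other liver cell known for osteopontin, the 5 markers Epcam, Krt19, Krt7, Krt18 and Cldn7 summed to 49.7 and 125 CPM in them, with Epcam and Krt19 at 0 in p16-LRTD and at 49.6 and 7.51 CPM in p16-Alb-LRTD. The hepatocyte markers summed to 2647 and 304 CPM, and the part of these cell types in the Spp1 values was not tested.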

How the data were processed

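Single-cell RNA was measured in 2 libraries of Nycodenz-isolated cells, 1 per genotype. What the authors deposited are unnormalised counts of UMIs for each gene in each barcode, which Cell Ranger 7.0.1 gave on mm10 from 10x 3' libraries. The annotation release is not given in the sources used here. Counts at the 3' end do not separate isoforms. Barcodes with over 5% mitochondrial UMIs, under 2000 or over 7000 genes, or over 50000 UMIs were left out, after the methods of the study. Doublets were handled by these limits and by leaving out barcodes that met more than 1 marker rule (245 and 221), without a doublet caller. UMIs were summed per class and compared as CPM with exact conditional intervals in Python 3.11.15 (scipy 1.17.1), with no test. This step, tried on simulated Poisson counts of the stellate comparison over 10189 genes, covered the true ratio in 95.3% of intervals. The intervals assume counts of this kind, and the simulation left out the uneven spread of UMIs over cells. It therefore checks the calculation only and does not show coverage for the real counts. Stellate cells were integrated by reciprocal PCA in Seurat 5.3.0 (R 4.3.3; 2000 variable genes, 30 dimensions, resolution 0.5). TMM (edgeR 4.0.16) and median-of-ratios (DESeq2 1.42.0) were used only as alternative scalings. All 10 genes are named; related genes and receptors are named when past 2-fold with a mean of at least 20 CPM, with the Itgav, Itgb1, Cd47, Itga9, Egfr and Sdc1 values chosen after they were seen. Correlation partners needed a UMI in at least 10% of cells. Genes, lists and rules were chosen with earlier results of these data known. Coordinates are from GENCODE vM21 (GRCm38). Another stellate marker is not reported here.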

Additional observations from a re-analysis of the deposited data

Results flagged for a closer look

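Spp1 and Fn1 lay in opposite directions in different cell classes, each with an interval for counting error on its own side of 0. The Spp1 log2 ratio was 2.06 in endothelial cells beside -0.87 in stellate cells and -1.15 in Kupffer cells. The Fn1 ratio was 0.89 in endothelial cells beside -0.60 in stellate cells and -0.16 in Kupffer cells. With 1 library per genotype the difference between classes was not tested. In p16-Alb-LRTD, 1 and the same endothelial cell held 230 of the 257 Spp1 UMIs and 316 of the 370 Fn1 UMIs. It also carried 3293 CPM of the macrophage gene Lyz2. Without the top cell of each library the endothelial ratios were 0.39 for Spp1 and -1.26 for Fn1.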

How the results depend on the processing

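Across 37 results and 601 values under alternatives, 440 stayed within the counting interval or within 1.5 times the count, 144 moved beyond it in the same direction or without a direction, and 17 changed direction. In stellate cells Postn stayed between -1.06 and -0.77 on the log2 scale, Sparc between -1.02 and -0.75, Fn1 between -0.67 and -0.52, Sparcl1 between 0.29 and 0.51, Thbs1 between 0.38 and 0.58 and Tgfbi between 0.33 and 0.46, while Tnc was 0.11 without cluster 3. The median of the 10 in stellate cells, -0.23, was -0.30 with no upper limits on genes and UMIs, -0.16 in cells of 10000 to 30000 UMIs, -0.057 as a mean of single-cell CPM, -0.19 with TMM and -0.19 with median-of-ratios scaling, and -0.33, -0.31 and -0.0060 without clusters 1, 2 and 3. The count of 0 genes at least 2-fold lower was 1 with marker thresholds 50% as high, 3 without cluster 0, 2 without cluster 2 and 4 at 1.5-fold. The endothelial median, -0.46, was 0.64 when cells meeting other marker rules were kept, 0.67 with thresholds 50% as high and 0.099 in cells of 10000 to 30000 UMIs. With those other cells kept, Postn was 0.055, Smoc2 0.41 and Fn1 -0.021 in endothelial cells, Spp1 was -0.48 with a mitochondrial limit of 10%, and Fn1 was -1.26 without the top cell. The Kupffer median, -0.13, was 0.090 with a mitochondrial limit of 10%, -1.03 with other cells kept, -1.25 in cells of 10000 to 30000 UMIs and 0.032 without Csf1r in the rule. In Kupffer cells Spp1 was 0.088 with no upper limits, and Fn1 was 0.17 with no upper limits, 0.26 with a mitochondrial limit of 10%, 0.16 with thresholds 1.5 times as high, 0.082 as a mean of single-cell CPM and 0.16 without Csf1r. In Kupffer cells of 10000 to 30000 UMIs, Spp1 was -5.54, Fn1 -4.32 and Thbs1 -2.89. The causes were not tested. Leaving out shared barcodes, cycling cells, the top cell, Csf1r or a cluster were alternatives chosen after seeing the data. No paired analysis was possible because the comparison holds 1 library on each side. Endothelial and Kupffer values rest on 430 and 283 and on 283 and 178 cells, which limits them.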
